A study of Mus musculus with 4 samples.

Results

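The genes described here are 9 transcription factor genes of the myeloid lineage: Spi1, which encodes PU.1, the C/EBP genes Cebpa, Cebpb, Cebpd and Cebpe, and Maf, Klf4, Gfi1 and Runx1. They were taken by name, as all array probe sets annotated to one of these genes and to no other, and 8 of the 9 had such probe sets, 21 in all among 34945 one-gene probe sets of 18193 genes. Cebpe had none and was not analysed here. Expression was measured in mouse bone marrow cells grown with the cytokine M-CSF for 5 days, which yields macrophages, from wild-type mice and from mice labelled Jmjd3-/-, called knockout here. The protein Jmjd3, a demethylase of histone H3 lysine 27, is the product of Kdm6b. Cells of each genotype were left unstimulated or given 100 ng/ml lipopolysaccharide (LPS), a bacterial cell wall component sensed by Toll-like receptor 4, for 4 h. Each of the 4 groups had 1 array. Strain, sex, age, number of mice and the deleted part of the gene are not stated in the labels, nor is it stated whether the cells came from separate animals or cultures.

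PU.1, an ETS factor, and Runx1, a Runt factor, open myeloid enhancers early in blood formation and stay in use in mature macrophages. C/EBP proteins are basic leucine zipper (bZIP) factors that pair with one another. C/EBPα drives entry into the granulocyte and macrophage lineages, C/EBPβ and C/EBPδ are factors of the acute phase and inflammatory response, and C/EBPε acts late in granulocyte maturation, on genes of the secondary granules. Gfi1 is a zinc finger repressor needed for neutrophil development. Klf4 is a zinc finger factor of monocytes, and c-Maf, encoded by Maf, is a bZIP factor that supports IL-10 production and macrophage identity.

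In the RefSeq annotation of mouse assembly GRCm38.p6, Cebpa lies at chr7:35119293-35121928, Cebpb at chr2:167688915-167690432, Cebpd at chr16:15887286-15889545 and Cebpe at chr14:54710363-54712174. Spi1 lies at chr2:91082374-91115759, Maf at chr8:115703253-115706894, Klf4 at chr4:55527137-55532475, Gfi1 at chr5:107716655-107725805 and Runx1 at chr16:92601466-92826074. The RefSeq promoter table held 7 transcription starts of 5 of these genes, Cebpa, Cebpb, Klf4, Gfi1 and Runx1. The 250 bases upstream of the start are shown for Cebpa and Cebpb, since these genes moved in opposite directions with LPS, for Klf4, whose LPS difference had opposite signs in the 2 genotypes, and for the start of Gfi1 that holds a C/EBP match. Each runs 5′ to 3′ on the strand of the gene, and capitals mark matches to the motifs named below.
Cebpa, chr7:35119043-35119292, plus strand: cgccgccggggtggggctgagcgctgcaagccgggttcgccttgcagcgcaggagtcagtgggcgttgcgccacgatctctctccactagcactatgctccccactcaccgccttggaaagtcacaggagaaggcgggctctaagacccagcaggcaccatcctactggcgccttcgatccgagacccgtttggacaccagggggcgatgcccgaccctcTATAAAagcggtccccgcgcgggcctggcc
Cebpb, chr2:167688665-167688914, plus strand: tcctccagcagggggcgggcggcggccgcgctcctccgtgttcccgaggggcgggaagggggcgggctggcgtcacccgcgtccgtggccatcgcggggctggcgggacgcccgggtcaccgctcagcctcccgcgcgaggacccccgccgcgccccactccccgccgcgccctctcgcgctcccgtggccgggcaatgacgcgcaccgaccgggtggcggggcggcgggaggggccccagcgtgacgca
Klf4, chr4:55532476-55532725, minus strand: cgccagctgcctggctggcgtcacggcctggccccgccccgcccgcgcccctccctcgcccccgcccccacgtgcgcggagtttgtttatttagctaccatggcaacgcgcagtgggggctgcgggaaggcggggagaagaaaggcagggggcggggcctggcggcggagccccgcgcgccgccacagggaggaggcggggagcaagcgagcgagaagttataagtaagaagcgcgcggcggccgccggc
Gfi1, chr5:107725806-107726055, minus strand: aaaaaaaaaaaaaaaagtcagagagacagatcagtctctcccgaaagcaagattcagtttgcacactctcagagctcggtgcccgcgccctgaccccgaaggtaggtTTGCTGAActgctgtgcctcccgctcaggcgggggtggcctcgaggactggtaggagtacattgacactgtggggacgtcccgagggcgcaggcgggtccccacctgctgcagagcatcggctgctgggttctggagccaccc

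Both strands of these windows were searched for a C/EBP motif (TTGCNNAA), an NF-kB motif (GGANNTTCC), AP-1 (TGANTCA), the cAMP response element (TGACGTCA), PU.1 (GAGGAAG), STAT (TTCNNNGAA), Runt (TGTGGT) and the TATA box (TATAAA). Of the 7 windows, the one of Cebpa held the letters TATAAA, 30 to 25 bases upstream of the start, and one of the pair at Gfi1 held TTGCTGAA, a match to the C/EBP motif, 143 to 136 bases upstream. The other 5 windows held no match, and no matches overlapped. Among 32851 windows of the same length in the table, 12.4% held the TATA motif, 9.56% the C/EBP motif, 3.59% the NF-kB motif, 6.75% AP-1, 1.55% the cAMP response element, 10.6% PU.1, 7.02% STAT and 14.0% Runt. The window of Cebpb was 81.6% G and C, that of Klf4 74.0% and that of Cebpa 66.4%, against a median of 52.4% over all windows. Those of Gfi1 were 59.2% and 57.6%, and those of Runx1 67.6% and 45.6%, the last below the median. A match is a description of letters, not of binding.

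Levels are log2 RMA values, and a reading of log2 6 served as a floor, under which a value is taken as background. Between 32.1% and 34.5% of all probe sets reached it per array. Kdm6b, the targeted gene, read 10.33 in unstimulated wild type, 11.23 in wild type with LPS, 9.82 in unstimulated knockout and 10.83 in knockout with LPS on its brightest probe set, and its other 2 probe sets lay under the floor on at least 3 of the 4 arrays. These values do not check the labels, because the position of the deletion relative to the probe sets is not stated in the labels. Of 10 macrophage markers, all reached the floor on 3 arrays and 9 on the array of wild type with LPS, and Csf1r, the M-CSF receptor, read between 12.16 and 13.12. In the knockout Cx3cr1 (3.05) and Fcgr1 (0.76) rose, Itgam (-1.04) fell and 7 did not pass. Cx3cr1 read 7.33 and 5.38 in wild type and 10.53 and 8.27 in the knockout, without and with LPS. Granulocyte and stromal markers were mostly higher in the knockout. Of 11 granulocyte markers, 1 reached the floor in unstimulated wild type and 3 in wild type with LPS, against all 11 on both knockout arrays. Their summed linear intensity was 2450 and 1802 in wild type and 14760 and 12810 in the knockout, without and with LPS. Without Mmp8, the one marker lower in the knockout, the sums were 195.8 and 302.3 against 14350 and 12670. Of 12 stromal markers, 2 and 5 reached the floor in wild type and 8 and 9 in the knockout, with sums of 531 and 687 against 19040 and 16060. Some markers of other cells were lower in the knockout. Cd3e (-3.06) and Cd3g (-3.33), the 2 tested lymphoid markers, both fell. They reached the floor in wild type alone, with knockout readings of 3.65 and 4.69 for Cd3e and 2.89 and 3.33 for Cd3g. Of the dendritic markers Ccr7 fell (-2.69), and Zbtb46 (-1.19), the other tested, did not pass (limma adjusted p = 0.0911). Of 5 tested mast cell, basophil and eosinophil markers, Fcer1a (-3.75), Mcpt8 (-2.07) and Siglecf (-1.85) fell and Prg2 (4.91) rose. Fcer1a and Mcpt8 reached the floor in wild type alone and Prg2 in the knockout alone. A marker that entered through 1 genotype could only be called higher there, so these calls are descriptions. In bulk RNA, fewer cells of a type and less RNA per cell cannot be told apart.

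**Figure D1:**
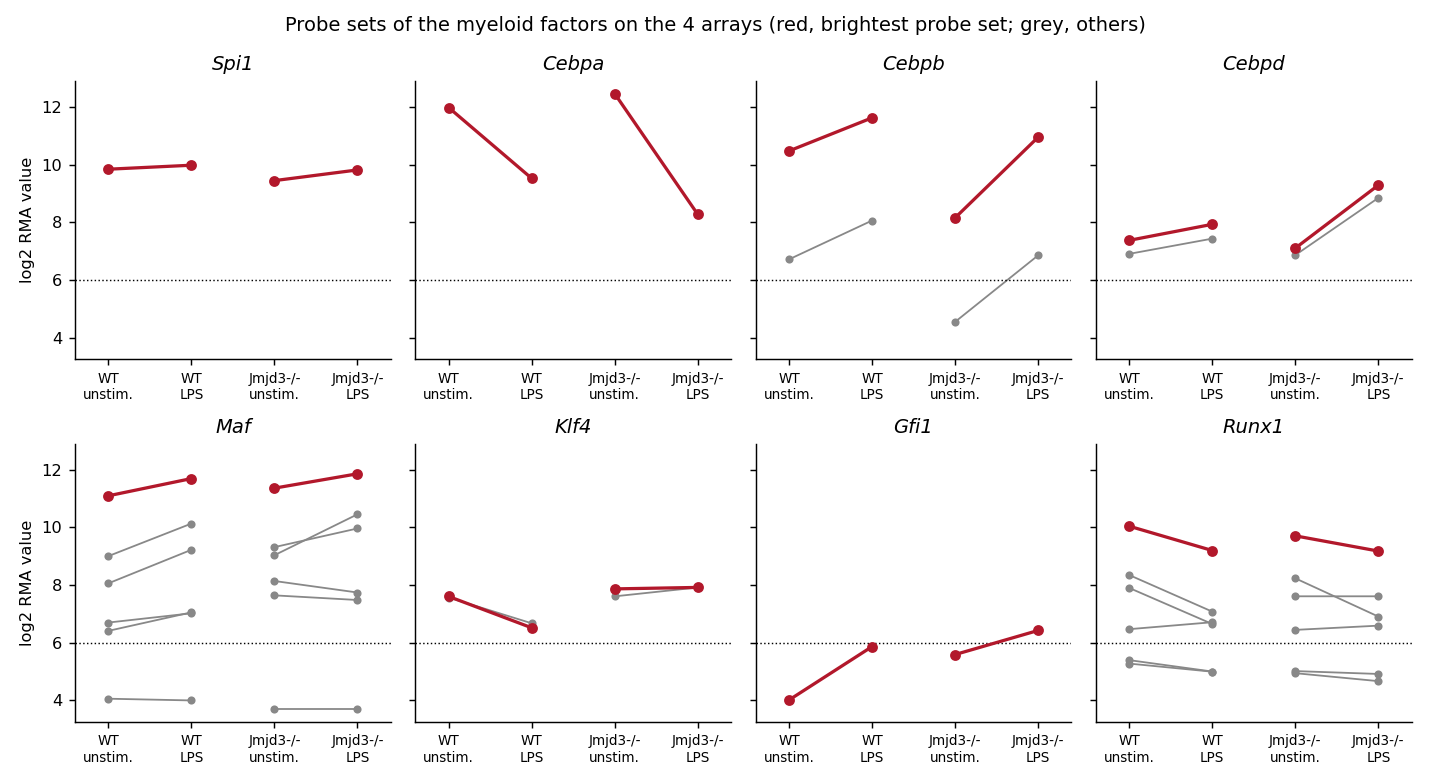
Log2 RMA value (vertical axis) of each one-gene probe set of 8 myeloid factor genes on the 4 arrays (horizontal axis, 1 array per group). Lines join the unstimulated and LPS arrays of a genotype, red marks the brightest probe set of a gene, grey the others, and the dotted line is the floor of log2 6. Cebpa drops from 11.98 to 9.52 in wild type and from 12.46 to 8.28 in the knockout, whereas Cebpb climbs in both.

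On the brightest probe set of each gene, LPS was accompanied by a lower level of Cebpa and higher levels of Cebpb and Maf in both genotypes. Of the 5 Maf probe sets past the floor, 3 were higher with LPS in the knockout. Each gene was represented by its brightest probe set, and the LPS effect shared by both genotypes was fitted on all 4 arrays with limma in an additive model. Of the 8 measured factors 2 rose (Cebpb and Maf), 1 fell (Cebpa) and 5 did not pass at an adjusted p below 0.05, with Benjamini-Hochberg adjustment over all genes tested, where of these 9385 genes 11.2% rose and 18.8% fell. All 8 passed the floor, Gfi1 through the array of knockout with LPS alone. The median effect over the 8 was 0.40, against -0.22 over all genes tested. With each array centred on its own median that overall value was -0.05 instead, and the effects of Cebpa, Cebpb and Maf were then -3.15, 2.14 and 0.72, still past the threshold. Without the intensity trend Cebpb and Maf missed the threshold (limma adjusted p = 0.0524 and 0.097), as did Maf as the mean of its probe sets (limma adjusted p = 0.111) and, without the genotype term, Cebpa, Cebpb and Maf (limma adjusted p = 0.0586, 0.233 and 0.144).

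Cebpa, the C/EBP gene of lineage entry, read 11.98 in unstimulated wild type, 9.52 in wild type with LPS, 12.46 in unstimulated knockout and 8.28 in knockout with LPS, on its single probe set. Both unstimulated arrays thus read above both LPS arrays. The difference with LPS was -2.46 in wild type, which is 5.48-fold lower, and -4.18 in the knockout, 18.2-fold lower. Over both genotypes Cebpa fell by 3.32 with an SE of 0.42 (limma adjusted p = 0.00984). Knockout and wild type stood 0.48 apart without LPS, with the knockout higher, and 1.25 apart with LPS, with the knockout lower. The additive genotype effect was -0.38 with an SE of 0.42, and did not pass (limma adjusted p = 0.628).

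Cebpb, the C/EBP gene of the inflammatory response, read 10.47 in unstimulated wild type, 11.62 in wild type with LPS, 8.15 in unstimulated knockout and 10.95 in knockout with LPS. The unstimulated knockout array was the lowest by more than 2 log2 units. Its second, dimmer probe set read 6.72, 8.06, 4.55 and 6.85 and gave the same order of arrays. With LPS the brightest probe set was higher by 1.15 in wild type (2.22-fold) and by 2.79 in the knockout (6.94-fold), and the dimmer one by 1.35 and 2.31. Over both genotypes Cebpb rose by 1.97 with an SE of 0.41 (limma adjusted p = 0.0268).

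Without LPS, the knockout array read 4.99-fold lower than wild type for Cebpb on the brightest probe set and 4.49-fold lower on the other, whose knockout reading was under the floor. With LPS the corresponding values were 1.59-fold and 2.31-fold lower. The genotype effect over both states was -1.50 with an SE of 0.41 and did not pass (limma adjusted p = 0.102). When every probe set was tested as a feature of its own, the dimmer probe set fell in the knockout by 1.69 with an SE of 0.31 (limma adjusted p = 0.0327) and the brightest, at -1.50, did not pass (limma adjusted p = 0.0884).

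Cebpd, the other inflammatory C/EBP gene, read 7.38 in unstimulated wild type, 7.93 in wild type with LPS, 7.10 in unstimulated knockout and 9.29 in knockout with LPS. Here the array of knockout with LPS stood above the other 3, which lay within 0.83 of each other. Its second probe set read 6.91, 7.44, 6.86 and 8.85 in the same order of arrays and showed the same pattern. The LPS difference was 0.56 in wild type and 2.18 in the knockout, or 1.47-fold and 4.54-fold higher, and the second probe set gave 0.53 and 1.98. The additive LPS effect was 1.37 with an SE of 0.41, which did not pass (limma adjusted p = 0.0639). After quantile normalisation the same effect was 1.47 and passed (limma adjusted p = 0.0498). The knockout read 0.27 lower than wild type without LPS and 1.36 higher with it, and the genotype effect of 0.54 did not pass (limma adjusted p = 0.487).

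Cebpa, Cebpb and Cebpd thus each had a larger LPS difference in the knockout than in wild type, whichever the direction. How many of all genes share this was not counted. Of all genes, 26.5% were 2-fold or more apart with LPS in the knockout, against 24.2% in wild type. On the brightest probe sets the knockout difference exceeded the wild-type one by 1.65 for Cebpb and 1.63 for Cebpd. The other probe set of each gave 0.96 for Cebpb and 1.45 for Cebpd. For Cebpa the knockout difference minus the wild-type one was -1.73. With 1 array per group these differences between responses have no test. In the additive model they are the residual, so a gene of this kind is less likely to pass.

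**Figure D2:**
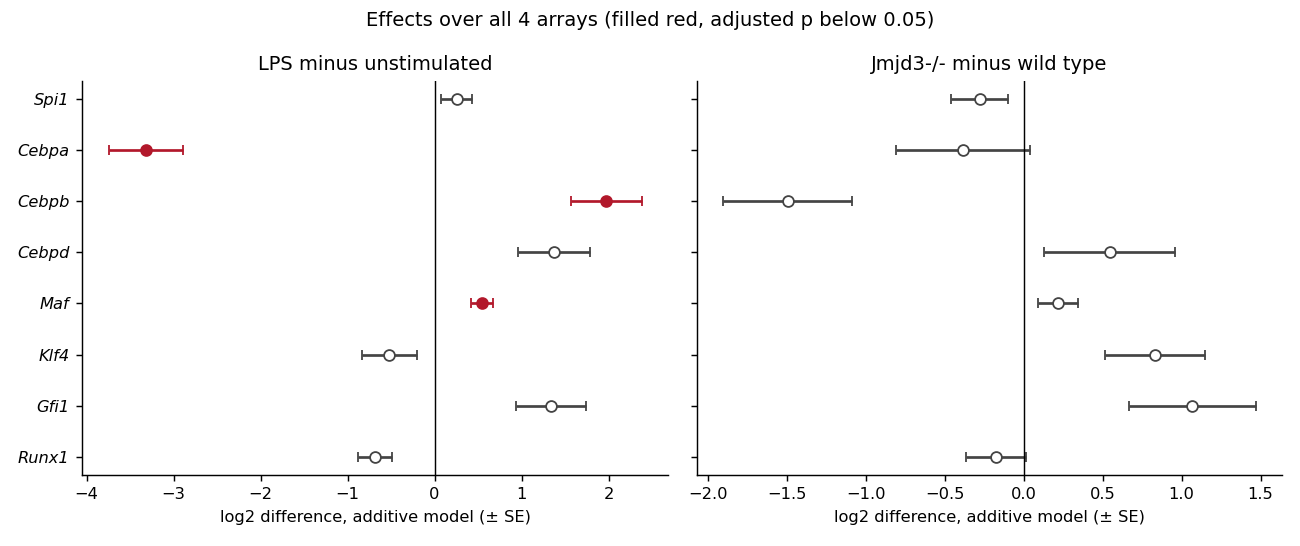
Effect of LPS (left) and of the Jmjd3-/- genotype (right) on 8 factor genes, as log2 differences of the brightest probe set in the additive limma model over 4 arrays, with standard errors. Filled red points have a Benjamini-Hochberg adjusted p below 0.05. Cebpa at -3.32, Cebpb at 1.97 and Maf at 0.55 are filled on the left, and no point is filled on the right.

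Maf was the only other factor past the threshold, and its probe sets did not act alike. The brightest read 11.09 in unstimulated wild type, 11.69 in wild type with LPS, 11.36 in unstimulated knockout and 11.86 in knockout with LPS. Both LPS arrays thus read above both unstimulated ones. It rose with LPS by 0.55 with an SE of 0.13 (limma adjusted p = 0.0359). As separate features, 3 of the 5 probe sets of Maf past the floor rose, by 0.55, 1.27 and 0.90, while the other 2 differed by -0.04 and 0.24 (limma adjusted p = 0.918 and 0.517).

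All 5 Maf probe sets read higher with LPS in wild type, by 0.32 to 1.16, and 3 of 5 did so in the knockout, where the values ran from -0.40 to 1.42. All 5 also read higher in the knockout than in wild type, by 0.03 to 1.44 without and 0.17 to 0.74 with LPS. The genotype effect of the brightest was 0.22 (limma adjusted p = 0.384), and none of the 5 passed as a feature of its own, the nearest being 0.998 for a probe set at an adjusted p of 0.0545 (limma). That probe set read 8.06, 9.22, 9.31 and 9.96 in unstimulated wild type, wild type with LPS, unstimulated knockout and knockout with LPS. The probe sets of a gene share the RNA of an array and are no replicates of a condition.

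Klf4, the monocyte factor, read 7.60 in unstimulated wild type, 6.52 in wild type with LPS, 7.87 in unstimulated knockout and 7.92 in knockout with LPS. The array of wild type with LPS was the low one, and the other 3 lay within 0.31. Its second probe set read 7.57, 6.67, 7.61 and 7.92 in that order and again placed wild type with LPS lowest. With LPS the brightest probe set was 2.12-fold lower in wild type (-1.09) and differed by 0.05 in the knockout, and the second differed by -0.89 and 0.31. The additive effects were -0.52 for LPS (limma adjusted p = 0.262) and 0.83 for genotype (limma adjusted p = 0.204), neither past the threshold. With LPS the knockout read 2.64-fold higher than wild type.

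Gfi1, a repressor needed for neutrophil development, was near background, with 4.01 in unstimulated wild type, 5.86 in wild type with LPS, 5.59 in unstimulated knockout and 6.42 in knockout with LPS. Unstimulated wild type was the lowest, and 1 array of 4 reached the floor, so the sizes of its differences rest on background readings. The additive effects were 1.34 for LPS and 1.07 for genotype, each with an SE of 0.40, and did not pass (limma adjusted p = 0.0632 and 0.196). After quantile normalisation the LPS effect was 1.56 and passed (limma adjusted p = 0.0389). Granulocyte precursors, which use Gfi1, have markers that were also higher on the knockout arrays. Mpo, the myeloperoxidase gene, read 4.65 and 4.16 in wild type and 11.64 and 11.02 in the knockout. The part of such cells in the Gfi1 reading was not tested.

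Spi1 read 9.84 in unstimulated wild type, 9.98 in wild type with LPS, 9.45 in unstimulated knockout and 9.82 in knockout with LPS. The 4 arrays spanned 0.53, the smallest range of the brightest probe sets. Its effects of 0.25 for LPS and -0.28 for genotype, each with an SE of 0.18, did not pass (limma adjusted p = 0.326 and 0.422).

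Runx1 read 10.04 in unstimulated wild type, 9.20 in wild type with LPS, 9.70 in unstimulated knockout and 9.18 in knockout with LPS on its brightest probe set. Both LPS arrays were below both unstimulated ones. The effect of LPS, -0.69 with an SE of 0.19, did not pass (limma adjusted p = 0.0541). With probe sets as features this one fell (limma adjusted p = 0.048), and so did another, by 1.29 (limma adjusted p = 0.011). That second probe set read 7.90, 6.65, 8.23 and 6.91 in unstimulated wild type, wild type with LPS, unstimulated knockout and knockout with LPS. The remaining 2 past the floor did not pass, one at -0.63 and one at 0.19. Of these, the first had LPS differences of -1.27 (wild type) and 0.00 (knockout). The annotation used here does not say which transcripts of Runx1 each probe set reads. The genotype effect of the brightest was -0.18 (limma adjusted p = 0.624).

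Counted by probe set, 18 of the 21 reached the floor. With LPS 5 rose and 3 fell, against 31.3% called in either direction among the 15527 probe sets tested. Between genotypes 1 was called, the dimmer one of Cebpb, against 9.02% of all. At the level of genes none of the 8 passed between genotypes, where 6.39% of all genes were higher and 3.12% lower in the knockout, and 3 of the 8 (Cebpb, Klf4 and Gfi1) had an unadjusted p below 0.05 in the same limma fit, against 24.4% of all genes tested. The median genotype effect was 0.02 over the 8 and 0.05 over all genes tested, the latter -0.07 with arrays centred on their medians. The granulocyte and stromal marker sums given above also differed between genotypes, and their part in the genotype values of the 8 factors was not tested.

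Between single arrays, with no test, 3 of 7 factors past the floor were 2-fold or more apart with LPS in wild type (Cebpb higher, Cebpa and Klf4 lower), against 24.2% of all genes. In the knockout 3 of 8 were, Cebpb and Cebpd higher and Cebpa lower, against 26.5%. Between unstimulated arrays Cebpb alone of 7 was 2-fold or more apart, lower in the knockout, against 15.3%. With LPS 3 of 8 were, Cebpd and Klf4 higher in the knockout and Cebpa lower, against 15.4%. The comparisons within a genotype and within a state share arrays.

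**Figure D3:**
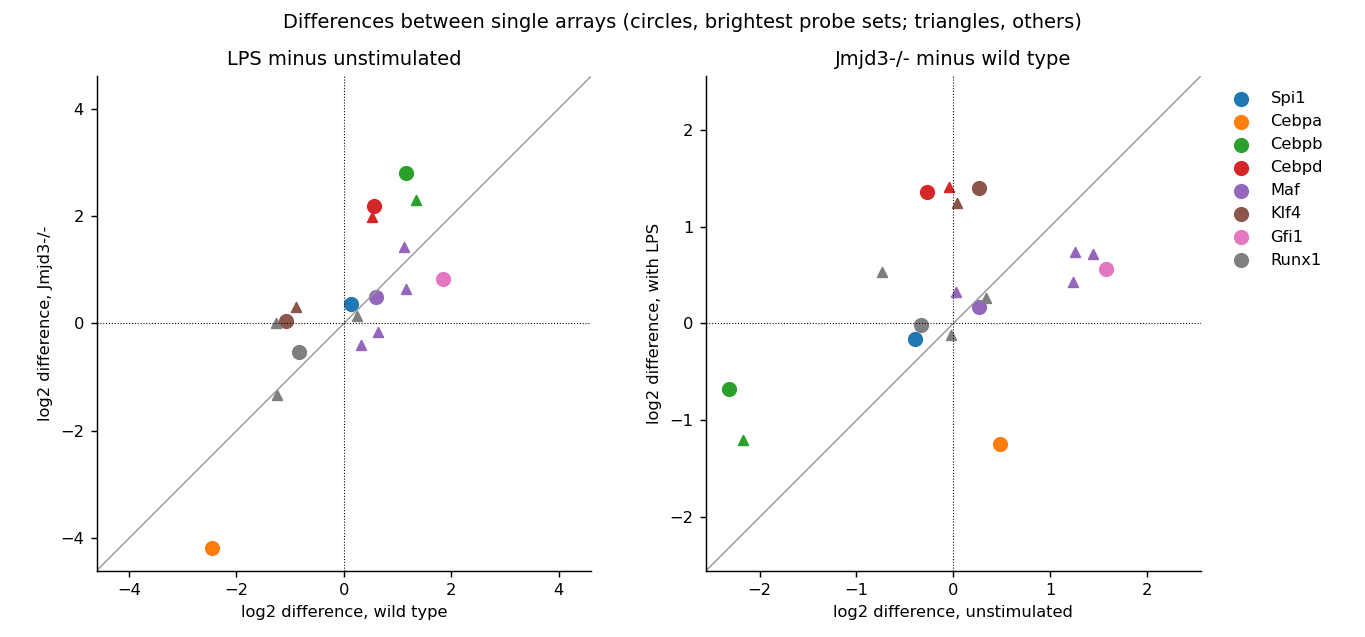
Log2 differences between single arrays for the 18 probe sets at or above the floor on some array. Left, LPS minus unstimulated in wild type (horizontal) and Jmjd3-/- (vertical), right, Jmjd3-/- minus wild type without (horizontal) and with LPS (vertical), with circles for brightest probe sets, triangles for others and a grey line of equality. The axes of each panel share arrays. Klf4 is at -1.09 and 0.05 on the left, and Cebpa at 0.48 and -1.25 and Cebpd at -0.27 and 1.36 on the right.

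The genes nearest to each factor in pattern over the 4 arrays were found by the root mean square distance between mean-centred log2 values, among 9377 genes past the floor. This is a description of 4 arrays. For Cebpa these were Abi3 (0.21) and Slc40a1 (0.22), the gene of the iron exporter ferroportin, which read 11.46, 8.94, 11.43 and 7.79 in unstimulated wild type, wild type with LPS, unstimulated knockout and knockout with LPS. For Cebpb they were Exoc3l4 (0.14) and Tma16 (0.15), for Cebpd Gm8369 (0.08) and Ncoa7 (0.11), for Klf4 Irf2bpl (0.05) and Slc7a1 (0.06), and for Gfi1 Rcn1 (0.10) and Ndrg1 (0.12). Slc7a1 encodes a cationic amino acid transporter and read 10.74, 9.76, 11.11 and 11.04. Spi1, Maf and Runx1 ranged over less than 1 log2 unit and were not matched.

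Partners and known targets of the factors were counted in 11 lists, where over all 18193 measured genes the median effect was -0.02 for LPS and -0.01 for genotype. Of all 9385 genes tested, 11.2% rose and 18.8% fell with LPS, and 6.39% rose and 3.12% fell in the knockout. The list counts below are to be read beside these shares. Among 12 tested bZIP partners and regulators of C/EBP, 4 rose with LPS and 3 fell. Batf2 rose by 3.82 and Batf by 2.32, both AP-1 family members, and Tef fell by 2.26, Dbp by 1.86 and Cebpg, a C/EBP that lacks an activation domain, by 1.39. Dbp reached the floor on the array of unstimulated knockout alone, at 7.15. It was tested because it was high there, so its call is a description and the size rests on background readings. Cebpg read 9.48, 8.23, 9.63 and 8.11 in unstimulated wild type, wild type with LPS, unstimulated knockout and knockout with LPS, and its LPS differences of -1.25 and -1.53 had the same sign as those of Cebpa. Between genotypes Nfil3 fell by 0.94 and the other 11 did not pass. The median of all 14 measured was -0.37 for LPS and 0.10 for genotype.

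Of 7 Maf family and cap n collar genes tested, the small Maf genes Mafk (1.54) and Maff (0.99) rose with LPS and Bach1, a repressor that pairs with small Maf proteins, fell by 1.09. In the knockout Nfe2 rose by 1.85 and Nfe2l2, the gene of Nrf2, fell by 0.78. Nfe2 read 5.78 and 4.68 in wild type, under the floor, and 7.17 and 7.00 in the knockout. It was tested because it was high in the knockout, so its call is a description and the size rests on background readings. Of 11 ETS factors, relatives of PU.1, 4 rose and 1 fell with LPS. Spic rose by 1.16, Gabpa by 0.92, Ets2 by 0.65 and Etv3 by 0.52, and Fli1 fell by 1.68, while Ets2 alone changed with genotype, falling by 0.75 in the knockout. Of 6 Runt factors and partners, Tle3, a co-repressor, rose with LPS by 1.86 and none passed between genotypes. Cbfb, the partner of Runx1, differed by -0.39 with LPS and -0.37 in the knockout (limma adjusted p = 0.27 and 0.422).

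Of 9 Krüppel-like factors beside Klf4, 4 fell with LPS and 1 rose. Klf13 fell by 1.40, Klf10 by 1.07, Klf16 by 0.88 and Klf9 by 0.87, and Klf6 rose by 0.59. In the knockout Klf2 rose by 1.93, with readings of 6.12 and 6.53 in wild type and 8.39 and 8.11 in the knockout, and Klf9 fell by 0.95. Among 14 Gfi1 partners and Egr and Id factors, Id3 fell by 1.92 with LPS, and in the knockout Id3 rose by 2.93 and Egr2, which opposes Gfi1 in macrophage fate choice, fell by 1.71. Egr2 read 12.47, 11.54, 10.19 and 10.41 in unstimulated wild type, wild type with LPS, unstimulated knockout and knockout with LPS. Of 20 other blood lineage factors, 4 rose and 4 fell with LPS, with Ikzf1 at 1.56, Rxra at -2.53, Mef2c at -2.16, Tfeb at -1.86 and Pparg at -1.78. Tfeb reached the floor on the array of unstimulated knockout alone, and Pparg on the unstimulated arrays alone. Both were tested because they were high without LPS, so these calls are descriptions and their sizes rest on background readings. In the knockout 3 rose, Myb (2.69), Mef2c (1.54) and Bcl6 (1.53), and 3 fell, among them Irf4 (-2.79) and Gata2 (-2.43). Gata2, a factor of mast cells and basophils, read 7.78 and 8.77 in wild type and 5.96 and 5.73 in the knockout. It was tested because it was high in wild type, so its call is a description and the size rests on background readings. Of the 5 tested mast cell, basophil and eosinophil markers given above, 3 fell, Prg2 rose by 4.91 and Cpa3 did not pass. The part of such cells in the Gata2 reading was not tested. Myb, a factor of immature blood cells, read 7.29 and 7.52 in wild type and 9.96 and 10.22 in the knockout, beside the granulocyte markers given above, and the part of such cells in it was not tested.

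Of 17 macrophage receptor and effector genes, such as Csf1r, a known PU.1 target, 2 rose with LPS, Cd14 (1.19) and Fcgr1 (1.08), and 3 fell, Il6ra (-1.86), Csf1r itself (-0.80) and Cd68 (-0.42), against a list median of -0.15. In the knockout 4 fell and 1 rose. Csf2rb, the shared beta chain of the GM-CSF receptor, fell by 1.47, Tlr4, the LPS receptor, by 1.42, Itgam by 1.04 and Csf2ra by 0.99, and Fcgr1 rose by 0.76. Tlr4 read 10.61 and 10.15 in wild type and 9.24 and 8.69 in the knockout, without and with LPS. Of 12 inflammatory and acute phase genes, such as Il6, a known C/EBPβ target, 8 rose with LPS and none fell, with a list median of 2.93. Il6 rose by 7.95, Il12b by 7.43, Nos2 by 6.03, Il1b by 4.86 and Tnf by 4.39. Of the 12, 6 reached the floor in unstimulated wild type and 7 in unstimulated knockout, against 12 and 11 with LPS. Il6, Il12b and Nos2 were under the floor on both unstimulated arrays. They were tested because they were high with LPS, so the count is a description and the sizes rest on background readings. In the knockout Arg1, a C/EBPβ target in macrophages, fell by 4.07 and the other 11 did not pass (median -1.08). Il1b read 10.09, 13.63, 6.72 and 12.91 and Saa3, an acute phase gene, 10.74, 12.43, 8.21 and 12.40 in unstimulated wild type, wild type with LPS, unstimulated knockout and knockout with LPS. Unstimulated knockout was the lowest array for both, as it was for Cebpb, and neither passed between genotypes (limma adjusted p = 0.128 and 0.269). In the same list, unstimulated wild type was the lowest array for Ptgs2, Ptges and Lcn2, and knockout with LPS for Arg1. The part of Cebpb in these readings was not tested.

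Granule genes were the list with the most genotype calls of the 11. Of 15 tested, 12 rose and 1 fell in the knockout, with a median of 4.74. Only 4 of the 15 reached the floor in unstimulated wild type, so most were tested because they were high in the knockout, and the count is a description. The largest effects were 7.78 for Ngp, 6.93 for Mpo, 6.59 for Camp, 5.85 for Ltf and 5.74 for Prtn3, while Mmp8, a neutrophil collagenase gene also made by other cells, fell by 2.92. Ngp, Camp and Ltf are known targets of C/EBPε, whose own gene was not analysed here. Of 5 genes tied to Maf factors in macrophages, Il10 rose with LPS by 5.69 and C1qc fell by 0.46, and Cd5l rose in the knockout by 3.92. Without LPS, Il10 read 3.74 in wild type and 4.48 in the knockout, under the floor, so it was tested because it was high with LPS.

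**Figure D4:**
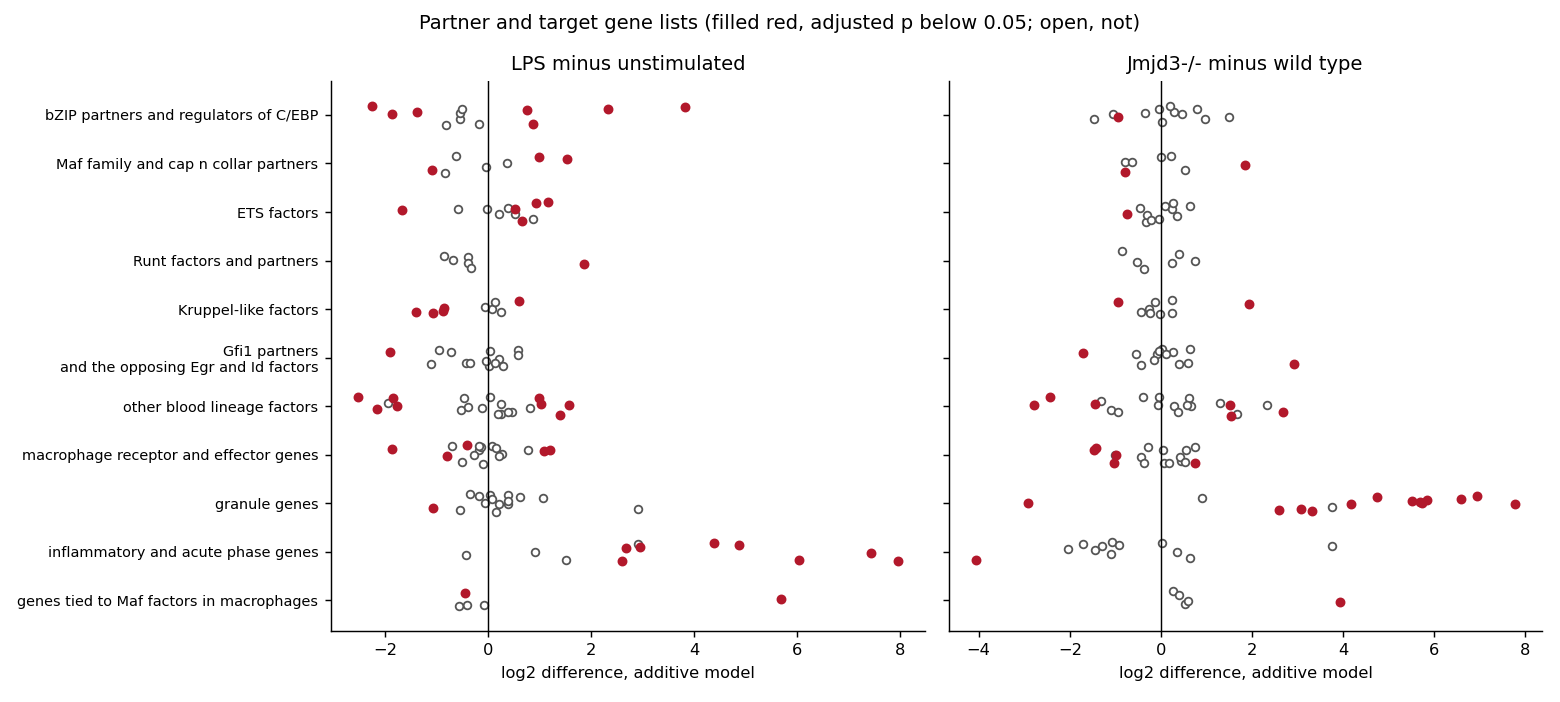
Log2 effect in the additive limma model (horizontal axes) of LPS (left) and of the Jmjd3-/- genotype (right) for the tested genes of 11 lists of partners and targets (rows). Each point is a gene, jittered vertically, filled red at a Benjamini-Hochberg adjusted p below 0.05. On the right, 12 of 15 granule genes are filled at positive values up to 7.78, and on the left 8 of 12 inflammatory genes are.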

How the data were processed

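Total RNA was extracted with Trizol, made into biotinylated cRNA with NuGEN Ovation reagents and hybridised to Affymetrix arrays, per the labels' protocols. The authors deposited log2 values per probe set, computed with RMA, per the submitters' processing notes. Version and settings: not given in the sources used here. Probe sets were named from the platform annotation, with symbols updated by gene identifier from RefSeq GRCm38.p6 (34741 of 34945 one-gene probe sets matched), and 64 control, 932 several-gene and 9160 unnamed probe sets were left out. A gene took its probe set with the highest mean. Genes at log2 6 on any array (9385) entered limma 3.58.1 in R 4.3.3, as an additive model of genotype and LPS with intensity trend, 1 residual and 3.84 prior degrees of freedom, and Benjamini-Hochberg adjustment over all genes tested. The fit was tested on simulated data with noise of the same size for every gene and no other departure from additive effects. In the measured data that departure can differ between genes, so the simulation does not check the p-values given here. With 1 array per group, the p-values measure no spread between replicates. The error term of this model is how far a gene departs from additive effects of genotype and LPS, combined with a prior over all genes. That departure may be technical. Tables and figures used Python 3.11.15, numpy 2.4.6, pandas 2.3.3 and matplotlib 3.10.9.

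The factors and lists were chosen with earlier results of these data known. In the lists, up to 5 called genes with the largest effects were named per comparison; Cbfb, Saa3, Mmp8 (also its removal from a marker sum), the named cell type markers and the array readings beside the effects of list genes, were chosen after their values were seen. Alternatives were no floor or log2 8, the mean of a gene's probe sets, every probe set as a feature, quantile normalisation, median centring, 64 added to linear values, no intensity trend and no term for the other factor. For the differences between single arrays they were the floor, the mean of probe sets, both normalisations and the added 64.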

Additional observations from a re-analysis of the deposited data

Results flagged for a closer look

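For 3 factors the same contrast had opposite signs in the 2 groups, and with 1 array per group none of these differences was tested. The knockout minus wild type difference of Cebpa was 0.48 without and -1.25 with LPS, a change of -1.73. That of Cebpd was -0.27 without and 1.36 with LPS, a change of 1.63, and its second probe set gave -0.04 and 1.41. The LPS difference of Klf4 was -1.09 in wild type and 0.05 in the knockout, 1.14 apart, and its second probe set gave -0.89 and 0.31.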

How the results depend on the processing

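Of the 8 factors, 3 passed for LPS as reported, 1 without an intensity trend (Cebpa, against 24.2% of all genes), 5 after quantile normalisation (with Cebpd and Gfi1, against 29.0%) and 0 without the genotype term, where 267 of 9385 genes passed in place of 2823. With no genotype term, 3 of the 8 factors had an unadjusted p below 0.05, against 28% of all genes. The count stayed between 2 and 4 under the other 6 alternatives. Between genotypes the count was 0, and 1 (Cebpb) with every probe set as a feature. Counts of 2-fold differences between single arrays stayed within 1.5 times of those reported under all alternatives run. Of 124 gene-level effects of single factors under alternatives, none changed sign, 116 kept their side of the threshold, 6 lost it and 2 gained it. For LPS the adjusted p ranged from 0.00566 to 0.0586 for Cebpa, from 0.0215 to 0.233 for Cebpb and from 0.0314 to 0.144 for Maf. Maf also missed the threshold as the mean of its probe sets (0.48, adjusted p = 0.111) and without the trend (adjusted p = 0.097). As separate features, a dimmer probe set of Maf (LPS, -0.04) and 2 of Runx1 (LPS, 0.19; genotype, 0.30) had the opposite sign to the brightest. With a floor of log2 8, Klf4 and Gfi1 gave no value. Precision is limited by the number of arrays, and signal over background limits Gfi1.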
